A study of Mus musculus with 6 samples.

Results

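*Dio2*, *Cox8b*, *Cidea*, and *Ckmt1* are genes of beige and thermogenic fat, and they were followed in adipocytes differentiated with or without NJT-2. They were chosen by name as beige fat genes and make up 4 of the 4864 genes analysed here. The copy of the gene table analysed ends within a line, so genes that would follow it were not analysed here and each gene list below is covered only in part. RNA-seq was performed on wild-type ADSCs, the adipocyte precursors of subcutaneous white fat, with 3 vehicle libraries (labelled Control) and 3 NJT-2 libraries. NJT-2 is a terpenoid that the study examined as a ligand of the nuclear receptor PPARγ. Per the study's methods, ADSCs came from male C57BL/6J mice of an unstated age and the cells were collected on day 8 of differentiation. Cells of both groups were differentiated in medium with dexamethasone, insulin, isobutylmethylxanthine, indomethacin, and triiodothyronine. The NJT-2 dose of this cell model is 200 nM, and no separate dose or exact timing is given for the sequenced cultures. The labels do not say whether the libraries of a group came from separate animals or cultures, so the p-values measure only the spread between these libraries, which may be technical.

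Beige adipocytes are cells of white fat that can burn fuel for heat. Their mitochondria dissipate energy through proton leak and through substrate cycles, and cold acts on them through noradrenaline, cyclic AMP, and thyroid hormone. *Dio2* encodes the deiodinase that turns thyroxine into the active hormone triiodothyronine inside the cell and is a known cyclic AMP target. *Cox8b* encodes an isoform of a small subunit of cytochrome c oxidase found in brown fat and striated muscle, *Cidea* a lipid droplet protein and common brown and beige marker, and *Ckmt1* a mitochondrial creatine kinase that is also abundant in brain and has been placed in the creatine cycle of beige fat.

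The 4 genes did not move as a group. *Dio2* was the most abundant of them per length in every vehicle library and had lower values in all 3 NJT-2 libraries, *Cox8b* was found only in NJT-2 libraries, *Cidea* was at the limit of detection, and *Ckmt1* varied more between replicates than between groups. None was called by the edgeR quasi-likelihood test, where a gene counts as called if its p, adjusted by Benjamini-Hochberg, is under 0.05 and its log2 fold change exceeds 1 in size. Of the 4670 genes with at least 10 counts over the 6 libraries, 20 were called higher with NJT-2 (0.428%) and 9 lower (0.193%). All 4 genes passed this filter, and 2 of them (*Dio2* and *Cox8b*) had an unadjusted p under 0.05, as had 736 tested genes (15.8%). *Cox8b* and *Cidea* passed it only through their NJT-2 counts, so their higher value with NJT-2 is in part fixed by the filter.

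**Figure D1:**
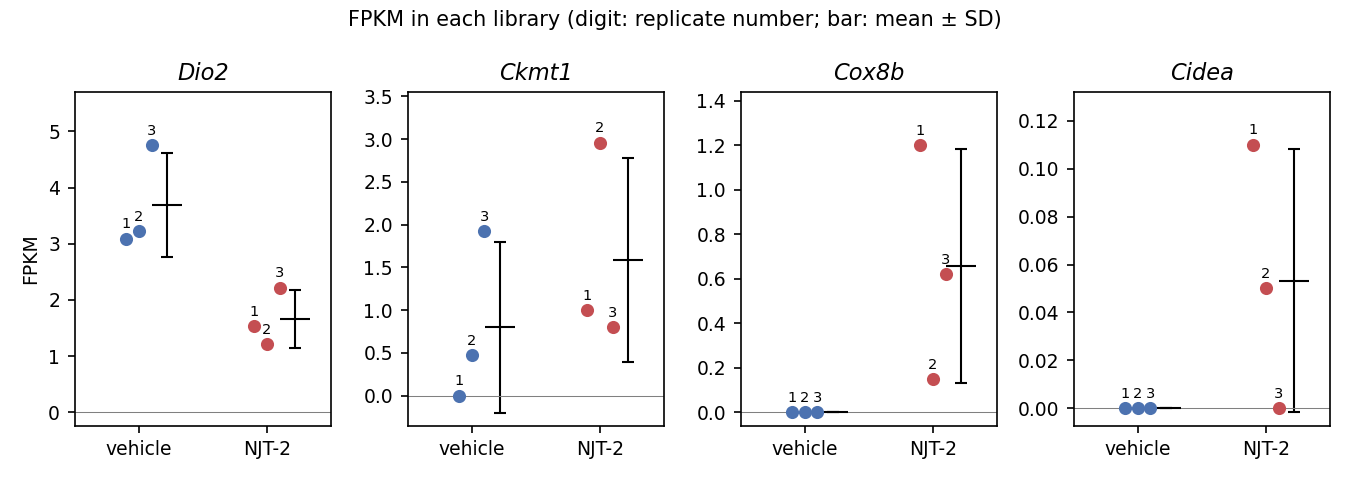
FPKM (the count scaled by gene length and library total) of the 4 genes in each library, each panel on its own linear axis, with the digit giving the replicate number and the bar the group mean ± SD (n = 3). The groups are apart for *Dio2* and *Cox8b*, while *Ckmt1* spans 0 to 1.92 FPKM in vehicle and 0.8 to 2.96 FPKM in NJT-2.

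Promoter sequences of *Dio2*, *Cox8b*, and *Ckmt1* were taken from RefSeq (build GRCm38.p6, 3 of the 4 genes matched). They are shown because the genes differ in the letters near their start sites that cyclic AMP factors and nuclear receptors can read. Each window holds 300 bases and is printed in the direction of the gene, with capitals for matches to TGACGTCA (cyclic AMP response element), AGGTCA (core of many nuclear receptor sites), and TATAAA, the box of many core promoters, with each motif searched on both strands. The *Dio2* window is chr12:90738989-90739288 on the minus strand, the *Cox8b* window chr7:140900397-140900696 on the minus strand, and the *Ckmt1* window chr2:121357526-121357825 on the plus strand.
Dio2: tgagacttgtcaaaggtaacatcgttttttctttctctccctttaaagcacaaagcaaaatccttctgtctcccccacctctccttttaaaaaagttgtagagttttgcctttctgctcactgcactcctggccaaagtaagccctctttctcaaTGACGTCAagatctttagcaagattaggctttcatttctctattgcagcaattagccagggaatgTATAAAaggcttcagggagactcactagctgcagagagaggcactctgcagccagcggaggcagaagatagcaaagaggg
Cox8b: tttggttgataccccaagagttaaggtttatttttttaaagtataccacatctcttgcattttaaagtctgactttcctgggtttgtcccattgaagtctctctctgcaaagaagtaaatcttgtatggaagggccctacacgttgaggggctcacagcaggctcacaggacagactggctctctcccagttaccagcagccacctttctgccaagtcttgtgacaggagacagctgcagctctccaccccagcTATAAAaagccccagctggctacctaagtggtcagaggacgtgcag
Ckmt1: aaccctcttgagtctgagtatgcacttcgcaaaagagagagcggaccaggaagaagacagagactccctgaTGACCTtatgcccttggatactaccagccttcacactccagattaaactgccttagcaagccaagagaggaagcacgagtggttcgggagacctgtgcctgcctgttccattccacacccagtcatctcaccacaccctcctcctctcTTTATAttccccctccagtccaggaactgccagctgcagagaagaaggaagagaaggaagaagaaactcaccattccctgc

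The windows follow the RefSeq start sites, which need not be those of the deposited gene spans given below. For *Dio2* the RefSeq start is 90739038, upstream of the deposited span that ends at 90738438, so its printed window lies outside that span. With the RefSeq start site as position 0, the first base of TGACGTCA in the *Dio2* window is at -95 and that of TATAAA at -30. TGACGTCA is palindromic and was found in 1.79% of the 32851 promoter windows. TATAAA was found in 13.6% of all windows. In the *Cox8b* window TATAAA begins at position 4, after the RefSeq start. The *Ckmt1* window holds AGGTCA on the opposite strand (TGACCT at -179, a motif in 16.3% of all windows) and TATAAA on the opposite strand (TTTATA at -31). RefSeq gives *Ckmt1* a second start site at 121358610, whose window had none of these letters. The direct repeat of AGGTCA with a spacer of 1 base, a form of PPAR response element found in 0.0396% of all windows, was in none of them. These matches describe the letters only, and no factor's binding was measured here.

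Depth was judged first, because 2 of the genes sit at very low counts. The analysed genes held between 16093037 counts (vehicle replicate 1) and 28929673 counts (vehicle replicate 2) per library. Vehicle replicate 1 and NJT-2 replicate 2 stood apart, with a Spearman rank correlation of log2 CPM across genes of 0.750 to 0.879 and 0.840 to 0.855 with their own group, against 0.950 and 0.994 between the remaining libraries of each group. Small counts were not evenly spread. Over the 6 libraries the value 4 occurred 395 times, whereas 3 occurred 92 times and 5 occurred 88 times, and 8 occurred 212 times against 110 for 7 and 80 for 9. A count of 4 was therefore taken as about 1 read unit, and 12 counts (3 read units over the vehicle group) as the floor for a gene listed at 0. What made the steps of 4 was not tested.

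**Figure D2:**
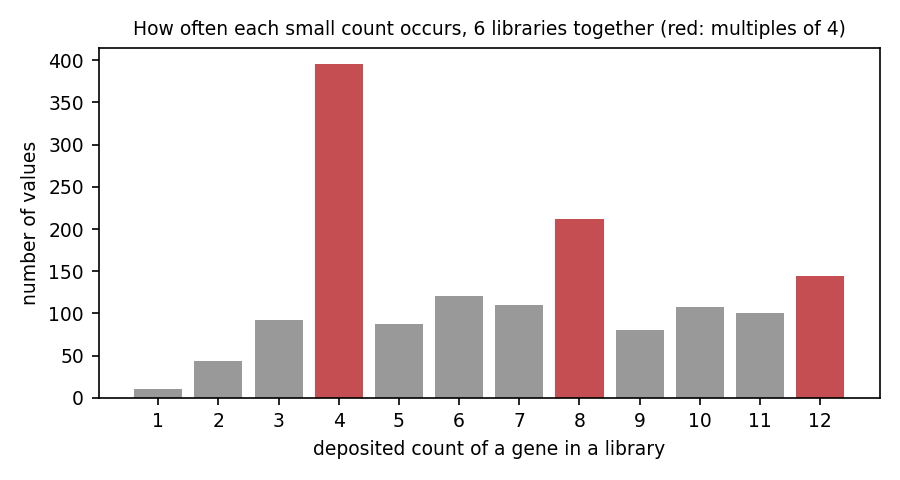
Number of gene values (y axis) at each deposited count from 1 to 12 (x axis), over 4864 genes and 6 libraries. Bars at 4, 8, and 12 (red) stand above their neighbours, with 395, 212, and 144 values.

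*Dio2* lies at chr12:90724552-90738438 on the minus strand (GRCm38) and has 1 annotated transcript of 2 exons and 5815 bases. The vehicle libraries (replicates 1 to 3) held 1044, 1671, and 1971 *Dio2* counts, compared with 633, 495, and 904 in the NJT-2 libraries. In FPKM these were 3.09, 3.22, and 4.75 in vehicle and 1.53, 1.21, and 2.22 with NJT-2. Every NJT-2 library was below every vehicle library. The mean was 3.69 ± 0.92 FPKM in vehicle and 1.65 ± 0.52 FPKM with NJT-2 (SD, n = 3 each). Among the tested genes, 634 (13.6%) were lower in NJT-2 without overlap, so this pattern alone was frequent.

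The log2 fold change of *Dio2* was -1.37 (SE 0.37), with an edgeR p of 0.00581 and an adjusted p of 0.169. An unadjusted p under 0.05 with a lower value in NJT-2 was reached by 426 genes (9.12%). *Dio2* was called by DESeq2, the tool of the study's methods, with a log2 fold change of -1.32 and an adjusted p of 0.0214, and DESeq2 called 308 tested genes (6.6%), 131 of them lower (2.81%). The fold change stayed negative in all 19 alternative settings, between -1.61 and -0.82, and the adjusted p ranged from 0.00473 to 0.502. Leaving out vehicle replicate 1 and NJT-2 replicate 2, the libraries that stand apart from their groups, gave -1.08 with an adjusted p of 0.0611. In the plot of fold changes by setting, the *Dio2* points lie on one side of 0 throughout, and those of *Ckmt1* cross it.

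**Figure D3:**
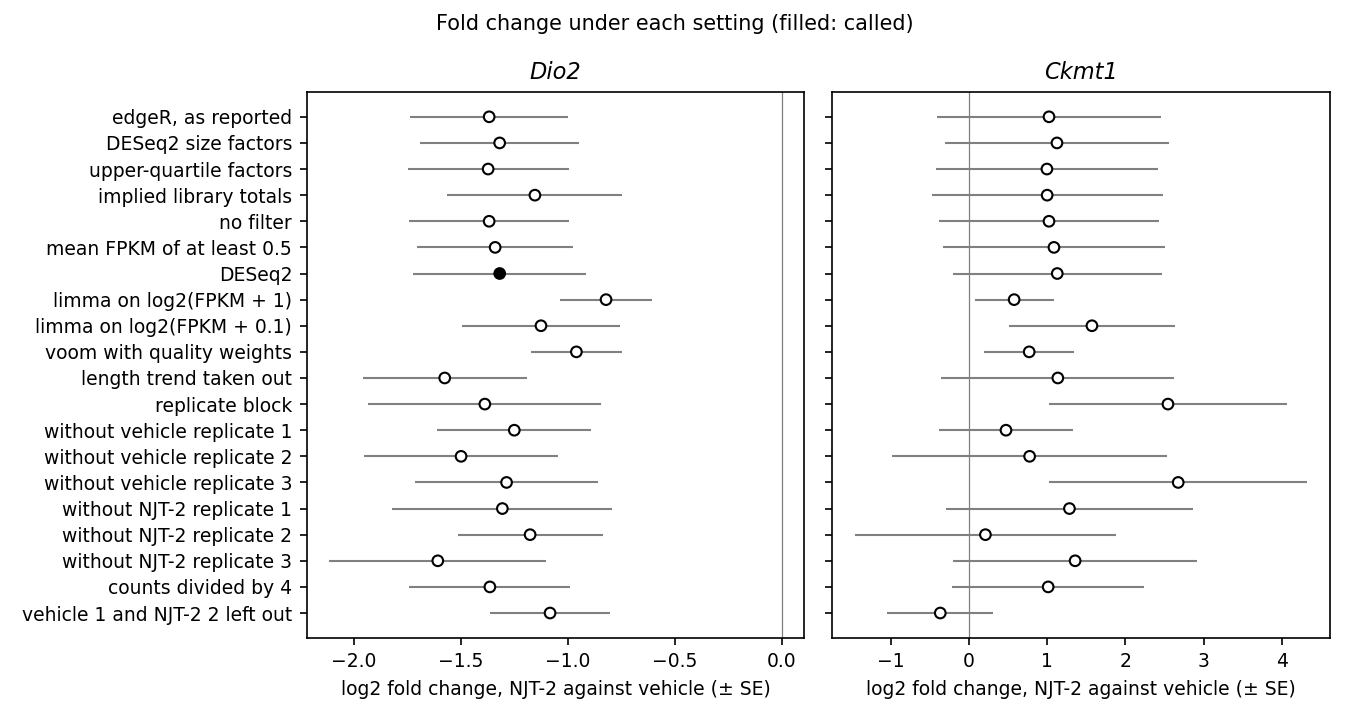
Log2 fold change of NJT-2 against vehicle (x axis, bars ± SE) for *Dio2* and *Ckmt1* under the reported edgeR test and 19 alternatives (y axis), with filled points for called results. *Dio2* runs from -1.61 to -0.82 and is called with DESeq2 only, while *Ckmt1* runs from -0.37 to 2.68 and is never called.

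The lower *Dio2* level stood beside higher adipocyte markers. Relative to the summed FPKM of 10 analysed markers of mature adipocytes, *Dio2* was at 2.93%, 3.90%, and 5.59% in the vehicle libraries and at 0.0890%, 0.247%, and 0.161% in the NJT-2 libraries. The 10 markers summed to between 82.5 and 105.5 FPKM in vehicle and to 1720, 489, and 1377 FPKM in NJT-2 replicates 1, 2, and 3. Of these, 6 were called higher by edgeR (0.428% of all tested genes) and all 10 by DESeq2 (3.79%). The edgeR count was 0 without vehicle replicate 1 or without vehicle replicate 2, 2 without vehicle replicate 3, 1 when NJT-2 replicate 1 or 3 was left out, and 6 without NJT-2 replicate 2. *Adipoq*, the adipokine adiponectin, had a log2 fold change of 6.58 (SE 0.556, adjusted p = 0.00954, edgeR; 2.05e-34 to 0.125 over 19 alternatives). *Cd36*, a fatty acid transporter, had 8.03 (SE 1.09, adjusted p = 0.0273, edgeR; 1.72e-21 to 0.29 over 19 alternatives). *Gpd1*, the glycerol-3-phosphate dehydrogenase that makes the backbone of triglycerides, was also among the 6. *Adipoq* was at 0.38, 0.50, and 0.39 FPKM in the vehicle libraries. Other markers of the list were well above 0 there, such as *Lpl*, lipoprotein lipase, at 78.8, 55.1, and 55.6 FPKM. *Lpl* was picked after its values were seen. In bulk RNA, fewer cells of a type and less RNA per cell cannot be told apart.

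The genes whose log2 CPM (counts scaled to an equal library total) over the 6 libraries was most like that of *Dio2*, among the 3705 genes averaging 0.5 FPKM or more, were *Zfp334*, *Ror2*, and *Atat1*, with Pearson r of 0.994, 0.991, and 0.986. *Ror2* is a receptor for Wnt5a and *Atat1* an acetyltransferase of tubulin. The groups did not overlap for any of them, and their log2 fold changes were -0.55, -1.05, and -1.12. They were picked for likeness to *Dio2* over these same libraries, so their separation and sign follow in part from that choice. In all, 67 genes had r over 0.9. Among them, chosen after its values were seen, was *Pdgfrb*, a receptor of mesenchymal and mural cells (r 0.974). Of 7 tested preadipocyte and fibroblast markers, 5 had a negative log2 fold change (DESeq2 called 3 lower, against 2.81% of all tested genes) and edgeR called 1 lower (0.193%), *Pi16* (-3.84, SE 0.490, adjusted p = 0.0273, edgeR; 3.64e-11 to 0.251 over 19 alternatives). The call of *Pi16* was lost on leaving out vehicle replicate 1 or 2 or NJT-2 replicate 1 or 3. The part of cell composition in the *Dio2* difference was not tested.

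Other genes of thyroid hormone handling and response gave no call among 13 tested. Of these, 11 had a positive log2 fold change (median 1.44, also with *Rxrg* at the ratio to the floor given below), against 2471 of all 4670 tested genes (52.9%, median 0.06). At an unadjusted p under 0.05, 5 of the 13 were higher, against 310 genes (6.64%) in all, and DESeq2 called 4 of the 13 higher, against 177 genes (3.79%). *Rxrg*, which encodes a retinoid X receptor that pairs with thyroid hormone receptors and PPARs, was picked after its values were seen. *Rxrg* was listed at 0 in all vehicle libraries and had 196, 27, and 130 counts with NJT-2. Scaled by library size, these counts were 27.1-fold the floor of 12 counts over the vehicle group. The ratio was 15.5-fold without vehicle replicate 2 and 17.1-fold without vehicle replicate 3. It leaves out the counting error of the NJT-2 counts. *Rxrg* is 1 of the 5 and 1 of the 4 genes just counted, and it passed the filter on low counts only through its NJT-2 counts. Its adjusted p was 0.096 (edgeR; 2.97e-06 to 0.405 over 18 alternatives). *Dio1* and *Dio3*, the other deiodinases, were not analysed here.

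Of 17 tested genes of beta-adrenergic and cyclic AMP signalling, the pathway known to act on *Dio2*, none was called by edgeR, 1 was higher at an unadjusted p under 0.05 (6.64% of all tested genes), and DESeq2 called 1 higher (3.79%). Their median log2 fold change was 0.44, with 13 positive values (52.9% of all tested genes) and 4 negative. The median was 0.25 with the trend of counts with gene length taken out, and 0.22, with 10 positive and 7 negative values, without vehicle replicate 1 and NJT-2 replicate 2. The early cyclic AMP targets *Fos* and *Nr4a1* had log2 fold changes of 0.37 (SE 0.899) and -0.0028 (SE 0.578), with overlapping groups. These last 2 were picked from the list as its immediate early genes after their values were seen.

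*Cox8b* lies at chr7:140898945-140900446 on the minus strand and has 1 annotated transcript of 2 exons and 360 bases. *Cox8b* was listed at 0 in all 3 vehicle libraries and had 31, 4, and 16 counts in NJT-2 replicates 1, 2, and 3. These counts correspond to 1.2, 0.15, and 0.62 FPKM, or to about 8, 1, and 4 read units. Every NJT-2 library was above every vehicle library, but the lowest held a single read unit. A pattern of 0 counts in all vehicle libraries with counts in all NJT-2 libraries was found in 21 of the 4670 tested genes (0.45%), and the opposite pattern in 1 gene (0.0214%). Zeros were more frequent in vehicle replicate 1, which listed 764 analysed genes at 0, than in the other libraries (257 to 374). *Cox8b* was also at 0 in vehicle replicates 2 and 3.

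Scaled by library size, the *Cox8b* counts with NJT-2 were 3.92-fold the floor of 12 counts over the vehicle group. This ratio was 2.34-fold without NJT-2 replicate 1, 2.24-fold without vehicle replicate 2, and 2.47-fold without vehicle replicate 3. It was 4.21-fold without vehicle replicate 1 and NJT-2 replicate 2. The edgeR p was 0.0187 and the adjusted p 0.24, so *Cox8b* was not called. Over 18 alternatives the adjusted p lay between 0.00162 and 0.518, and *Cox8b* was called only with voom and sample quality weights. The floor covers counting error of the vehicle group only. The NJT-2 counts were taken as they stand, so the ratio is not a strict lower bound.

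The order of the NJT-2 libraries for *Cox8b* (replicate 1, then 3, then 2) was also the order of the summed adipocyte markers. Over the 3 NJT-2 libraries, *Cox8b* was at 0.0549% of the summed marker FPKM. At that share, the vehicle libraries would hold 1.23, 1.47, and 1.21 counts of *Cox8b*, or 3.91 counts together, which is under the floor of 12. Whether *Cox8b* differed in relation to these markers was thus not detectable at this depth.

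The genes most like *Cox8b* in log2 CPM were *Pcx*, *Pus10*, and *Slc36a2*, with r of 0.993, 0.990, and 0.989 over 6 libraries, and 134 genes had r over 0.9. With *Cox8b* above 0 only in the NJT-2 libraries, these values rest on those libraries. *Pcx* encodes pyruvate carboxylase, which feeds lipid synthesis in fat, and *Slc36a2* an amino acid transporter used as a surface marker of brown and beige adipocytes. *Slc36a2* was measured at higher levels than *Cox8b*, at 3.31, 4.23, and 4.92 FPKM in vehicle and 24.4, 10.7, and 22.6 FPKM with NJT-2. The groups did not overlap, and the log2 fold change of *Slc36a2* was 1.99 (SE 0.383) with an adjusted p of 0.0805 (edgeR; 8.02e-06 to 0.423 over 19 alternatives). As *Slc36a2* was picked for likeness to *Cox8b*, its separation and sign follow in part from that choice. Brown and beige markers and effectors went both ways, with 10 positive and 3 negative values among 13 tested. *Slc29a1*, another of them named after its values were seen, had -1.88 (SE 0.373, adjusted p = 0.085, edgeR), also without overlap.

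Cytochrome c oxidase subunits other than *Cox8b* did not share its pattern of detection. All 5 analysed subunit genes of 21 listed (*Cox5a*, *Cox4i2*, *Cox6c*, *Cox7c*, and *Cox7a2l*) had negative log2 fold changes with overlapping groups, none was called by edgeR or DESeq2 or had an unadjusted p under 0.05, and their median was -0.65. The direction depended on the libraries. The subunits summed to 543, 322, and 176 FPKM in vehicle and 290, 206, and 274 FPKM with NJT-2. Without vehicle replicate 1 and NJT-2 replicate 2 the median turned to 0.21, with 3 positive and 2 negative values. A trend with gene length moved with these sums, as the Spearman correlation of a library's relative counts with gene length was -0.39 and -0.40 in vehicle replicates 1 and 2 and between 0.18 and 0.35 in the other libraries. With this trend taken out, the median was -0.31, with 2 positive and 3 negative values. Of 8 assembly factors, 4 had positive and 4 negative values, with a median of 0.09 (0.27 with the length trend taken out, 0.41 without vehicle replicate 1 and NJT-2 replicate 2) and no edgeR call (1 higher with DESeq2, against 3.79% of all tested genes, and 1 higher and 1 lower at an unadjusted p under 0.05, against 6.64% and 9.12%). *Cox8a* and *Cox8c*, the paralogs of *Cox8b*, were not analysed here. Since *Cox8b* is also a striated muscle gene, muscle markers were read beside it. The 5 analysed muscle markers summed to 2.10, 1.33, and 0.70 FPKM in vehicle and to 1.39, 1.24, and 9.74 FPKM with NJT-2. Their part in the *Cox8b* counts was not tested.

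The study also measured *Cox8b* and *Dio2* by qPCR, and its primers show which stretch of each transcript that assay reads. They are printed here from the study's supplement, as forward and then reverse primer.
Cox8b forward: tgtggggatctcagccatagt
Cox8b reverse: agtgggctaagacccatcctg
Dio2 forward: aattatgcctcggagaagaccg
Dio2 reverse: ggcagttgcctagtgaaaggt
Matched to the GENCODE M21 transcripts, the *Cox8b* pair spans positions 224 to 285 of 360 and the *Dio2* pair positions 443 to 567 of 5815. Both lie within the coding part, which runs from 105 to 314 in *Cox8b* and from 155 to 952 in *Dio2*. Most of the *Dio2* transcript, and so most of the length behind its RNA-seq count, lies downstream of its amplicon. The supplement also lists primers for *Cidea*, which are not printed here. The outcomes of the study's qPCR were not compared with the counts.

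*Cidea* lies on chromosome 18 (67343604 to 67367785, plus strand) and has 1 annotated transcript of 5 exons and 1115 bases. *Cidea* was listed at 0 in all vehicle libraries and had 9, 4, and 0 counts in NJT-2 replicates 1, 2, and 3, or 0.11, 0.05, and 0 FPKM. The groups overlapped, because NJT-2 replicate 3 was also listed at 0. The sum of 13 counts with NJT-2 is close to the floor of 12 counts, and no fold is given. The edgeR p was 0.105 and the adjusted p 0.384, with a range from 0.353 to 0.775 over 17 alternatives. A difference in *Cidea* was not detectable at this depth.

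At the share of the summed adipocyte markers that *Cidea* had over the NJT-2 libraries (0.00446%), the 3 vehicle libraries would hold 0.973 counts together. The genes most like *Cidea* in log2 CPM were *Cyb561*, *Map3k11*, and *Neu1*, with r of 0.931, 0.924, and 0.918 over 6 libraries. With *Cidea* above 0 in 2 libraries, these values rest on those libraries.

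Other genes of lipid droplets ranged from levels as low as *Cidea* to that of abundant genes. Of 15 tested genes of the CIDE family and lipid droplets, of 35 listed, 3 were called higher by edgeR (0.428% of all tested genes) and none lower, and DESeq2 called 8 higher (3.79%). The edgeR count was 6 without NJT-2 replicate 2 and 0 on leaving out any other library. The 3 are also among the 6 called adipocyte markers and were *Plin4*, a droplet coat protein (log2 fold change 3.12, SE 0.493, adjusted p = 0.0428, edgeR), *Pnpla2*, the triglyceride lipase of fat cells (3.98, SE 0.588, adjusted p = 0.0371, edgeR), and *Lipe*, hormone-sensitive lipase (4.23, SE 0.646, adjusted p = 0.0374, edgeR). Over 19 alternatives their adjusted p reached 0.314, 0.29, and 0.29 (edgeR). The median log2 fold change of the 15 genes was 2.53, with 12 positive values (52.9% of all tested genes were positive) and 3 negative. *Cideb*, the paralog of *Cidea* best known from liver, had 2, 8, and 0 counts in vehicle and 11, 7, and 19 with NJT-2, a range of low values that gave an adjusted p of 0.581 (edgeR). *Cidec*, the paralog of white fat, was not analysed here. In NJT-2 replicate 1, *Pnpla2* was at 459 FPKM, *Cidea* at 0.11 FPKM, and *Cideb* at 0.09 FPKM.

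*Ckmt1* lies at chr2:121357714-121363737 on the plus strand and has 10 annotated transcripts, the longest with 9 exons and 1620 bases. The vehicle libraries (replicates 1 to 3) held 0, 105, and 343 *Ckmt1* counts, compared with 179, 520, and 142 in the NJT-2 libraries. In FPKM these were 0, 0.47, and 1.92 in vehicle and 1, 2.96, and 0.80 with NJT-2. The groups overlapped, with vehicle replicate 3 above 2 of the NJT-2 libraries. The log2 fold change was 1.02 (SE 1.43), and the adjusted p was 0.744 (edgeR).

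The size of the *Ckmt1* fold change depended on single libraries, and its direction on a pair of them. The log2 fold change was 2.68 without vehicle replicate 3 and 0.21 without NJT-2 replicate 2, and it turned to -0.37 (adjusted p = 0.761, edgeR) without vehicle replicate 1 and NJT-2 replicate 2. *Ckmt1* is 1 of 26 genes listed at 0 in vehicle replicate 1 among 3515 genes with at least 100 counts in each of the other 5 libraries. No gene of this kind was found for any other library. Genes of wide expression such as *Rab2b* and *Pigh* are among the 26, so the value of *Ckmt1* in that library is given only as listed at 0.

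The genes most like *Ckmt1* in log2 CPM were *Clstn3*, *Gria1*, and *Nefl*, with r of 0.999, 0.998, and 0.998 over 6 libraries, and 522 genes had r over 0.9. *Gria1* is a glutamate receptor subunit of neurons and *Nefl* the light neurofilament chain. *Clstn3* encodes a calsyntenin of synapses and is also the locus of an adipocyte droplet protein, and the gene-level counts do not separate these products. All 3 were listed at 0 in vehicle replicate 1, as could follow from their choice by likeness to *Ckmt1*, and none was called.

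A list of neuron and glia genes, written after these values were seen, was read beside *Ckmt1*. Its 19 analysed genes summed to 6.93, 12.4, and 50.5 FPKM in vehicle replicates 1 to 3 and to 19.5, 63.8, and 16.3 FPKM in NJT-2 replicates 1 to 3. The order of the libraries was that of *Ckmt1*. The list holds *Gria1* and *Nefl*, named above for their likeness to *Ckmt1*, so this agreement is in part built in. In vehicle replicate 1, 12 of the 19 genes were listed at 0, *Gria1*, *Nefl*, and *Map2* included, and 6.50 of the 6.93 FPKM came from *Stx1a*. *Ckmt1* was at 3.8% of the summed FPKM in each of vehicle replicates 2 and 3 and at 5.14%, 4.64%, and 4.92% in the NJT-2 libraries. Of the 19 genes, 18 had a positive log2 fold change (median 0.67), against 52.9% of all tested genes. Without vehicle replicate 1 and NJT-2 replicate 2, 1 value was positive and 18 were negative (median -1.13). None of the genes was called by edgeR or DESeq2, and 1 had an unadjusted p under 0.05 (edgeR, against 15.8% of all tested genes). What set the level of these genes across libraries was not tested.

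**Figure D4:**
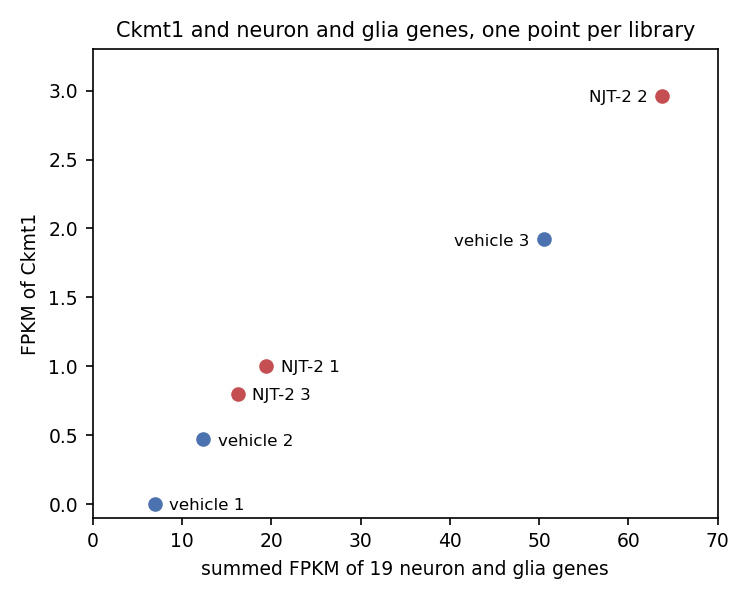
FPKM of *Ckmt1* (y axis) against the summed FPKM of 19 neuron and glia genes (x axis), 1 point for each library, with vehicle in blue and NJT-2 in red. The points run from vehicle replicate 1 (6.93 and 0 FPKM) to NJT-2 replicate 2 (63.8 and 2.96 FPKM), and the groups interleave. The list was written after the values were seen and holds genes named for their likeness to *Ckmt1*.

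Other genes of the creatine cycle gave no edgeR call among 8 tested, with 6 positive and 2 negative log2 fold changes and a median of 0.37 (0.24 with the length trend taken out). DESeq2 called none, and 1 was higher at an unadjusted p under 0.05 (edgeR, against 6.64% of all tested genes). *Ckb*, the cytosolic creatine kinase reported to act in the creatine cycle of thermogenic fat, was measured at much higher levels than *Ckmt1*, at 38.6, 28.8, and 28 FPKM in vehicle and 15.7, 28.1, and 13.9 FPKM with NJT-2. Its log2 fold change was -0.98 (SE 0.450, adjusted p = 0.333, edgeR; 0.000673 to 0.608 over 19 alternatives), called lower only with voom and quality weights, with NJT-2 replicate 2 inside the vehicle range. *Ckmt2*, the mitochondrial creatine kinase of striated muscle, had 0, 4, and 0 counts in vehicle and 4, 0, and 21 with NJT-2. For calcium cycling, another energy cycle of beige fat, 3 genes were tested, none was called by edgeR, 1 was higher at an unadjusted p under 0.05 (6.64% of all tested genes), and DESeq2 called 1 higher (3.79%).

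Within the 4 genes, the order of FPKM levels was *Dio2*, then *Ckmt1*, then *Cox8b* and *Cidea* at 0 in vehicle replicates 2 and 3, whereas *Ckmt1* was also at 0 in replicate 1. In NJT-2 replicate 1, *Cox8b* (1.2) and *Ckmt1* (1) were close below *Dio2* (1.53), and in NJT-2 replicate 2 *Ckmt1* (2.96) was above *Dio2* (1.21). *Cidea* was the lowest in every NJT-2 library. In the vehicle group the spread of *Ckmt1* (0.80 ± 1 FPKM) left *Ckmt1* and the genes listed at 0 within 1 SD of each other.

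The wider lists of brown and beige genes, which leave out the 4 genes, were read beside them. Of 45 listed markers and effectors, 14 were analysed and 13 tested. By edgeR 1 of the 13 was called higher, against 0.428% of all tested genes, and none lower. This gene was *Acot2*, a mitochondrial acyl-CoA thioesterase (log2 fold change 3.47, SE 0.464, adjusted p = 0.0273, edgeR; 1.39e-13 to 0.259 over 19 alternatives). At an unadjusted p under 0.05, 5 of the 13 were higher (6.64% of all tested genes) and 1 lower (9.12%). Without overlap, 5 were higher (12.9%) and 1 lower (13.6%), and DESeq2 called 4 higher (3.79%) and 1 lower (2.81%). Each of these counts of higher genes holds *Acox2*, a peroxisomal oxidase listed at 0 in all vehicle libraries, which passed the filter only through its NJT-2 counts and is named after its values were seen. The edgeR count was 3 without NJT-2 replicate 2 and 0 on leaving out any other library. The list had 10 positive and 3 negative values with a median of 0.92. Without vehicle replicate 1 and NJT-2 replicate 2 it had 7 positive and 6 negative values with a median of 0.40. *Plin5*, a coat protein that ties droplets to mitochondria, had 0, 7, and 8 counts in vehicle and 188, 80, and 182 with NJT-2, with an adjusted p of 0.156 (edgeR; 1.01e-05 to 0.501 over 19 alternatives). Of 20 tested regulators (46 listed) none was called by edgeR and 18 had a positive value, against 52.9% of all tested genes. Their median was 1.41 (0.70 without vehicle replicate 1 and NJT-2 replicate 2). Without overlap, 8 were higher, against 604 (12.9%) of all tested genes, and 2 lower, against 634 (13.6%). At an unadjusted p under 0.05, 7 of the 20 were higher and 1 lower (edgeR), and DESeq2 called 5 higher and 1 lower.

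*Pparg*, the receptor NJT-2 was chosen for, had 1.06, 5.68, and 6.41 FPKM in vehicle and 37.3, 13, and 33.7 FPKM with NJT-2, a log2 fold change of 2.56 (SE 0.619, adjusted p = 0.15, edgeR; 1.95e-05 to 0.465 over 19 alternatives). *Ppara*, the receptor of fatty acid oxidation genes, had 0, 12, and 23 counts in vehicle and 416, 85, and 255 with NJT-2 (adjusted p = 0.198, edgeR; 0.000602 to 0.502 over 18 alternatives). For both, as for *Cox8b*, NJT-2 replicate 2 was the lowest of the NJT-2 libraries, and for *Dio2* it was the lowest of all. *Ucp1*, *Ppargc1a*, and *Prdm16* were not analysed here.

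**Figure D5:**
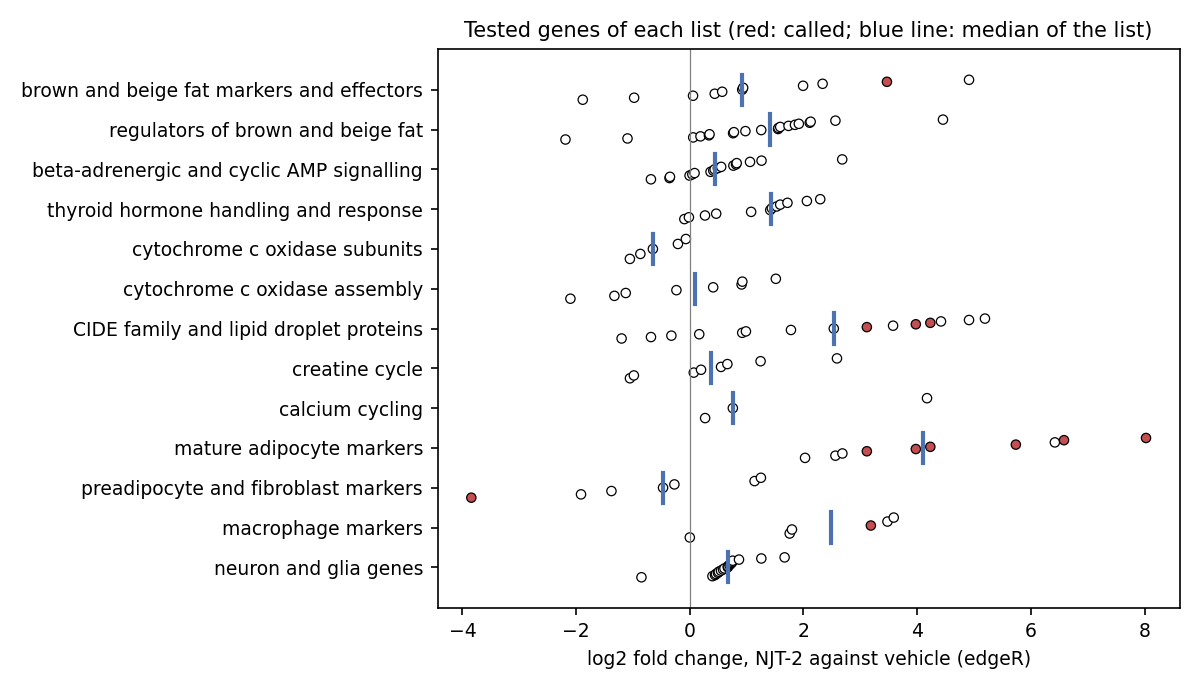
Log2 fold change of NJT-2 against vehicle (x axis, edgeR) for the tested genes of each list (y axis), with called genes in red and a blue line at the median of the drawn genes. Genes listed at 0 in a whole group are left out. Mature adipocyte markers lie to the right of 0, while the cytochrome c oxidase subunits lie left of it, a direction that turned without vehicle replicate 1 and NJT-2 replicate 2 (median 0.21).

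Markers of other cells were read beside these results. Of 6 macrophage markers, all had a positive log2 fold change (52.9% of all tested genes), DESeq2 called 3 higher (3.79%), and edgeR called 1 higher (0.428%), *Adgre1* (3.19, SE 0.501, adjusted p = 0.0428, edgeR; 3.32e-08 to 0.29 over 19 alternatives, not called on leaving out any library but NJT-2 replicate 2), with sums of 9.67 to 12.8 FPKM in vehicle and 31.6 to 59.2 FPKM with NJT-2. Epithelial markers summed to 89.0 FPKM in NJT-2 replicate 2, nearly all from *Krt19*, and to between 0.61 and 3.69 FPKM in the other libraries. None of 4 endothelial, 5 epithelial, or 4 muscle markers tested was called by edgeR or DESeq2 or had an unadjusted p under 0.05. Their part in the values of *Dio2*, *Cox8b*, *Cidea*, and *Ckmt1* was not tested. Annotated genes overlap *Dio2* (*Gm26512*, by 238 bases), *Cidea* (*B430212C06Rik*, by 500 bases), and *Ckmt1* (*Strc*, by 10 bases) on the opposite strand. The library kit keeps the strand, but whether the counting used it is not given in the sources used here.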

How the data were processed

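Poly(A) RNA was sequenced in 6 libraries with paired-end reads on an Illumina NovaSeq. The submitters' processing notes name cutadapt 1.9, HISAT2 2.2.1, StringTie 2.1.6, DESeq2, edgeR, and GRCm38; the counter and annotation release are not given in the sources used here. The deposited table holds raw counts per gene, not normalized by the authors. The deposited FPKM values, computed by the authors and rounded to 2 decimals, are close to the count divided by gene length and library total. They do not equal it for every gene, *Cideb* and *Acox2* among the exceptions. All 12 columns matched a sample title. Of 4865 lines in the copy analysed, the last ended before its values and was left out, and genes beyond it were not analysed here. The 4864 analysed genes held 27.7% to 32.5% of the implied total of a library.

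Counts were tested with edgeR 4.0.16 in R 4.3.3 (TMM, quasi-likelihood, common biological coefficient of variation 0.606, SE as the log2 fold change over the square root of F). In simulated counts of this comparison, 163 of the 200 genes given a log2 fold change of 3, among 4670, were recovered with 7 false calls. The 200 were drawn from genes averaging 0.5 FPKM or more, with noise drawn separately for each gene. *Cox8b* (mean 0.328 FPKM) and *Cidea* (0.0267 FPKM) lie below that limit, and the *Dio2* change was smaller than 3. The recovery thus does not give the power for these genes. Alternatives were DESeq2 1.42.0, limma 3.58.1 on log2(FPKM + 1) and log2(FPKM + 0.1), voom with quality weights, other scalings (implied library totals, a length trend) and filters, a replicate block, and leaving out each library. Chosen after seeing the data were counts divided by 4, the removal of vehicle replicate 1 with NJT-2 replicate 2, and the neuron and glia list. The 4 genes and the lists were chosen with earlier results of these data known. Named besides them were the paralogs, *Pparg*, *Ppara*, *Plin5*, called list genes, and the 3 genes most alike to each, except where the text says otherwise. No pair of libraries agreed within sampling noise; NJT-2 replicates 1 and 3 came closest (chi-square per gene 47.2).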

Additional observations from a re-analysis of the deposited data

How the results depend on the processing

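Calls depended strongly on the setting. *Dio2* was called with DESeq2 (-1.32), *Cox8b* with voom and quality weights (adjusted p = 0.00162), *Ckmt1* in none of 19 alternatives, and *Cidea* in none of the 17 that gave it a value (DESeq2 gave no adjusted p, and the filter at 0.5 FPKM left it out). Leaving out 1 library gave -1.61 to -1.18 for *Dio2*, 0.21 to 2.68 for *Ckmt1*, an adjusted p of 0.195 to 0.518 for *Cox8b* and of 0.362 to 0.647 for *Cidea* (edgeR). Without vehicle replicate 1 and NJT-2 replicate 2, *Ckmt1* turned to -0.37, *Clstn3* to -0.40, *Gria1* to -0.67, and *Nefl* to -0.77. Leaving out 1 library gave -0.089 to 2.65 for *Gria1* and -0.19 to 3.07 for *Nefl*, negative without NJT-2 replicate 2. The causes were not tested.

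Against 20 genes called higher and 9 lower, DESeq2 gave 177 and 131, voom 481 and 530, and the removal of both libraries 269 and 209. There were 4 higher with limma on log2(FPKM + 1), and 5 lower with DESeq2 size factors, with the filter at 0.5 FPKM, and with the length trend taken out, and 4 lower with implied library totals. Leaving out 1 library gave 0 to 53 higher and 0 to 16 lower; 53 and 16 came without NJT-2 replicate 2. The labels do not say whether the replicate numbers pair the samples. The r of same-numbered deviations was 0.179, 0.032, and -0.207, which cannot decide it with 3 libraries per group. With a replicate block 78 genes were called higher and 43 lower, none of the 4 genes among them (*Dio2* -1.39, adjusted p = 0.214, edgeR). The median of all tested genes moved from 0.06 to 0.23 with implied totals, to 0.19 with limma on log2(FPKM + 0.1), to -0.08 with voom and without NJT-2 replicate 2, and to -0.05 without both libraries. Counts were few for *Cox8b* and *Cidea*, at 51 and 13 over all libraries.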
